A study of Homo sapiens with 12 samples.

Results

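The mRNAs that encode splicing factors and RNA helicases were examined among the RNA targets of dSpCas9, a Streptococcus pyogenes Cas9 without nuclease activity, in human cells. Their 175 genes were chosen by symbol alone: HNRNP, SRSF, SF3A and SF3B, SNRNP and SNRP, PRPF, U2AF, RBM, DDX and DHX. A peak was counted when it covered at least 1 nt of an exon of such a gene on the same strand (GENCODE version 44, hg38). Of 18128 peaks in 4 lists, 276 did so, and they lay on 55 of the 175 genes. The rule used no enrichment value, but it was chosen with earlier results of these data known.

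Peaks came from eCLIP, in which UV light links a protein to the RNA it touches, and the protein is immunoprecipitated (IP) so that its RNA can be sequenced. The cells were Lenti-X 293T, a line derived from HEK 293T human embryonic kidney cells, transfected with pCDNA3.1 plasmids for dSpCas9 with a V5 or a 3xFLAG tag or with the empty vector. The dSpCas9 had no nuclear localization signal and no guide RNA was given, so the RNAs met a plasmid-expressed protein in a transformed line. The study's imaging placed the protein mostly in the cytoplasm, and where it met each RNA was not measured. The 12 libraries formed 6 groups of 2 replicates. For each tag there were dSpCas9 IPs, size-matched inputs from the same part of the membrane without IP, and IPs from empty vector cells. All cells received 400 mJ/cm2 of UV in 2 exposures, and the membrane was taken from 115 kDa upward.

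Each deposited list compares the IPs of a tag with the inputs or with the empty vector IPs. For each peak it gives the ratio of IP to control reads as a log2 value, averaged geometrically over both replicates and called enrichment here, and the −log10 of a p-value. The lowest values in the lists were an enrichment of 3.00 and a −log10 p of 3.01. No value per replicate and no read count was in the lists. The depth behind a peak is therefore unknown, an enrichment has no error between replicates, and no difference between enrichments was tested. Lists of the same tag share their IP libraries. The level of each mRNA in the cells was not in the lists either, and its part in which genes had a peak was not tested.

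Splicing is carried out by the spliceosome, which is built from small nuclear ribonucleoproteins (snRNPs) and many auxiliary proteins. SRSF proteins and hnRNPs bind pre-mRNA and promote or block the use of exons, and many of them control the splicing of their own transcripts. DDX and DHX proteins are helicases that remodel RNA and RNA-protein complexes in splicing, export, translation and decay. The products act mainly on RNA in the nucleus or the cytoplasm, but the measurements here concern their mRNAs, not the proteins.

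The study modelled dSpCas9 targets by a GU in a loop upstream of a stem of 5 paired bases. Here the stem was required to follow the GU directly. The model was computed from the hg38 sequence and played no part in the choice of the genes. The following stretches are shown because each carries such a call inside an interval that all 4 lists shared. Where an interval held several calls, only the call nearest its 5′ end is shown. They are written 5′ to 3′ with T for U, and capitals mark the GU and the 5 stem bases.
HNRNPA1, exon 5, coding sequence (CDS), chr12:54282450-54282474, plus strand: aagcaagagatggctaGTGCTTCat
DHX34, exon 2, CDS, chr19:47353557-47353586, plus strand: aggagcaccagGTGGTGGtagtggccggtg
DHX33, exon 1, 5′ UTR, chr17:5468917-5468946, minus strand: gaaggggcggtGTGCTCCtgttgtctgcac
DHX33, exon 12, 3′ UTR, chr17:5443458-5443487, minus strand: tgcgtgaccctGTCAGTGctttcaggagac
RBM15, exon 3, 3′ UTR, chr1:110346596-110346625, plus strand: aagaGTAGCTGtctctcaaacgtgcgctca
RBM33, exon 18, 3′ UTR, chr7:155776560-155776589, plus strand: tctGTAGCAGtgattctaaagtggcgtttg
SF3A1, exon 16, 3′ UTR, chr22:30333883-30333912, minus strand: tccctGTGTCAGtgggcggtggtttcctgc
The 5 stem bases differed among the 7 stretches, and the calls lay in the 5′ UTR, the CDS and the 3′ UTR. In the SF3A1 stretch the U had the lowest computed probability of being paired, 0.128, and in the RBM33 stretch it had the highest, 0.693.

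Very short peaks can be parts of a longer run of adjoining peaks, so their ends do not bound where enrichment was recorded. Of 37 different peaks of up to 30 nt, 22 held a GU and 15 did not. The shortest peaks, such as that of 2 nt on HNRNPA1, leave little room for a GU. The share over all exonic peaks of this length was not counted, so these counts are not a result about these mRNAs. The following 9 were picked by hand as examples from several families, 6 with a GU and 3 without. Capitals mark every GU, with no condition on structure.
DDX17, exon 1, CDS, chr22:38506214-38506224, minus strand: ttGTagccccg
HNRNPAB, exon 1, 5′ UTR, chr5:178204532-178204548, plus strand: caggcggcggcaccgcg
HNRNPA1, exon 5, CDS, chr12:54282475-54282486, plus strand: ccagccaaagag
HNRNPA1, exon 6, CDS, chr12:54282603-54282619, plus strand: GTcGTggagGTgGTttc
SNRPA, exon 3, CDS, chr19:40759579-40759601, plus strand: ccGTgGTgggggctGTccagggg
SNRPA, exon 4, CDS, chr19:40762901-40762915, plus strand: ggcatgccgccgatg
DDX3X, exon 16, CDS, chrX:41347404-41347430, plus strand: gccgcaGTggcggagGTggccacgGTa
SNRNP200, exon 1, 5′ UTR, chr2:96305443-96305469, minus strand: tgGTgGTctgaagcctccgagcagccg
PRPF8, exon 1, 5′ UTR, chr17:1684780-1684808, minus strand: aagcggcctcttGTGTgagggcctGTggg
HNRNPAB, DDX3X, DDX17 and SNRPA, like several other genes below, were named after their values were seen. The HNRNPAB peak holds no GU, and its enrichment was 4.46 over V5 input and 4.60 over the V5 empty vector IP. A peak of 53 nt follows it directly in both lists, with 3.13 and 3.29. The 11-nt peak of DDX17 holds a single GU and had enrichments of 4.84 and 4.11 in the same lists. In the lists of V5 over input and FLAG over input, 7 of 101 (6.93%) and 9 of 88 (10.2%) peaks on these mRNAs held no GU, near the 7.34% and 8.14% of all exonic peaks.

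A larger share of the 175 genes than of all 20046 protein-coding genes had an exonic peak, and the gap was widest with V5. Over V5 input 44 genes (25.1%) had a peak, against 13.6% of all protein-coding genes. Over the V5 empty vector IP the 36 genes made up 20.6%, against 6.78%. With FLAG the shares were closer to the background. Over FLAG input 30 genes (17.1%) had a peak, against 13.2% of all genes, and over the FLAG empty vector IP 12 genes (6.86%) did, against 4.96%. A peak in all 4 lists was found on 10 genes, in 3 lists on 14, in 2 on 9 and in 1 on 22, while 120 genes had no peak at all. How all protein-coding genes divide by number of lists was not counted, so this division is not a result about these genes.

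In the median, the enrichment of the peaks on these mRNAs was close to that of all exonic peaks over both inputs. It was lower over the V5 empty vector IP and higher over the FLAG empty vector IP, where only 25 peaks were counted. The peaks on these mRNAs had medians of 3.57 over V5 input and 3.48 over the V5 empty vector IP. Over FLAG input the median was 3.63, and over the FLAG empty vector IP it was 3.73. All peaks on protein-coding exons had medians of 3.60, 3.62, 3.61 and 3.59 in the same order. An enrichment of at least 4 was reached by 19.8%, 17.7%, 25% and 28% of the peaks in the order of these lists, against 26.7%, 28.2%, 28.2% and 26.4% of all exonic peaks. The median −log10 p was higher than that of all exonic peaks in each list, with 13.2 against 8.81 over V5 input and 14.8 against 9.87 over FLAG input. Peaks over FLAG input were shorter than elsewhere, with a median of 58 nt against 72 nt.

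**Figure D1:**
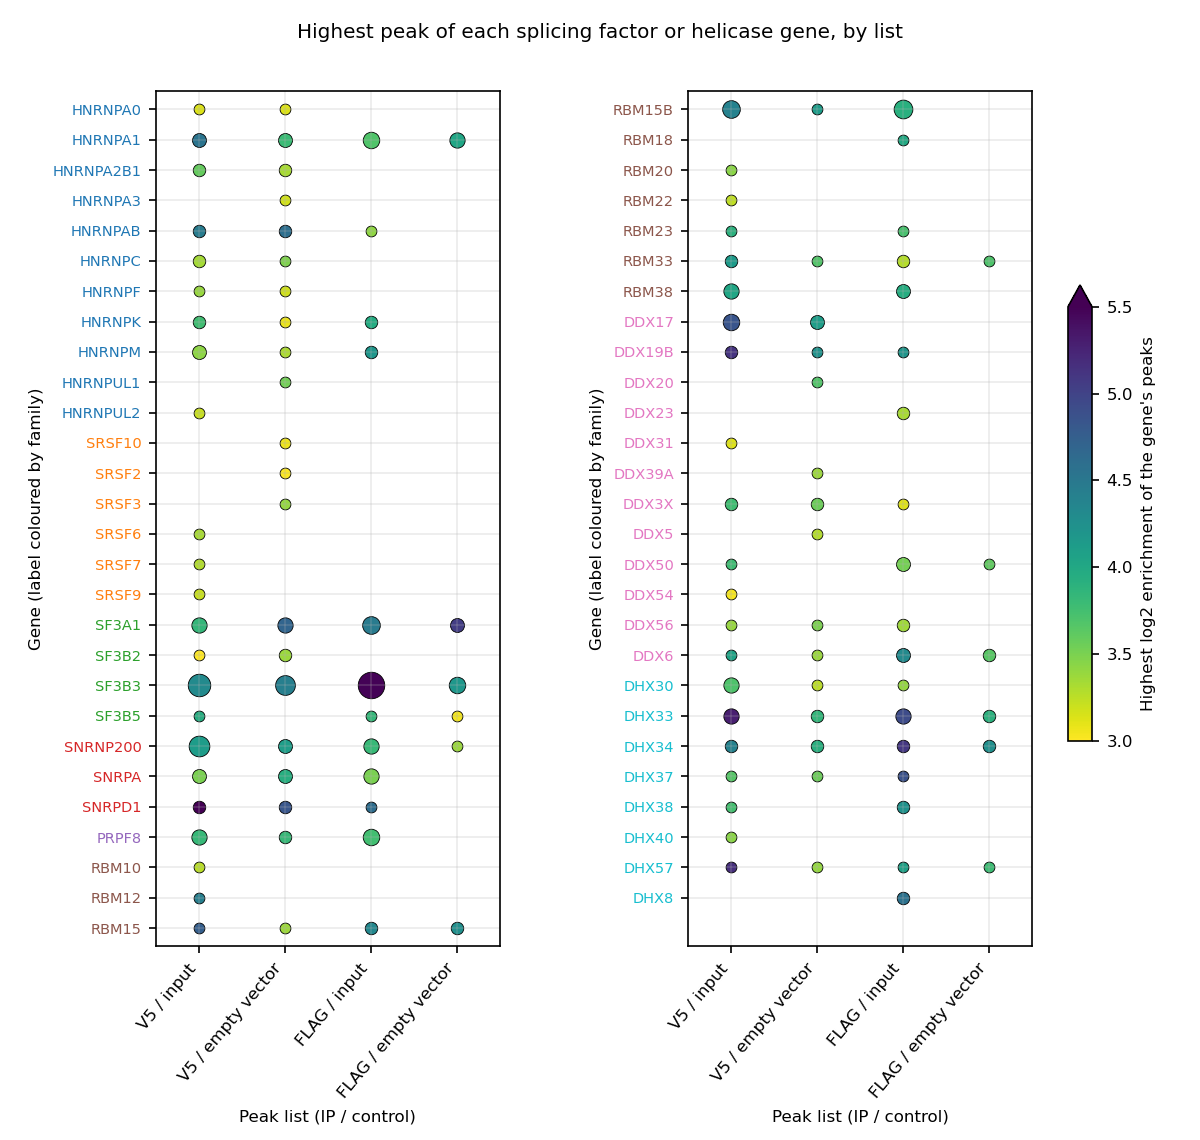
Highest enrichment (log2 of IP over control reads, colour) of the peaks on each of the 55 genes (rows, labels coloured by family) in the 4 lists (columns). Larger circles stand for more peaks, an empty cell for no peak. SNRPD1 reached 6.80 over V5 input, SF3B3 had the most peaks, and the SRSF genes had peaks in the V5 columns only.

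The families differed in how many of their genes carried peaks and in which lists. A peak in at least 1 list was found on 31.4% of the 175 genes, against 18.1% of all protein-coding genes. Of the 27 HNRNP genes 11 had a peak in some list, and of the 12 SRSF genes 6 did. The SF3A and SF3B family had 4 of 9, the DHX family 8 of 16, the DDX family 12 of 38 and the RBM family 10 of 38. Peaks were found on 3 of 19 SNRNP and SNRP genes, on 1 of 13 PRPF genes and on 0 of 3 U2AF genes. A peak over the inputs of both tags was found for 6 DHX, 5 DDX, 5 RBM, 4 HNRNP, 3 SF3A and SF3B, 3 SNRNP and SNRP, 1 PRPF and 0 SRSF genes, 27 in all, while 9.26% of all protein-coding genes had such peaks.

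**Figure D2:**
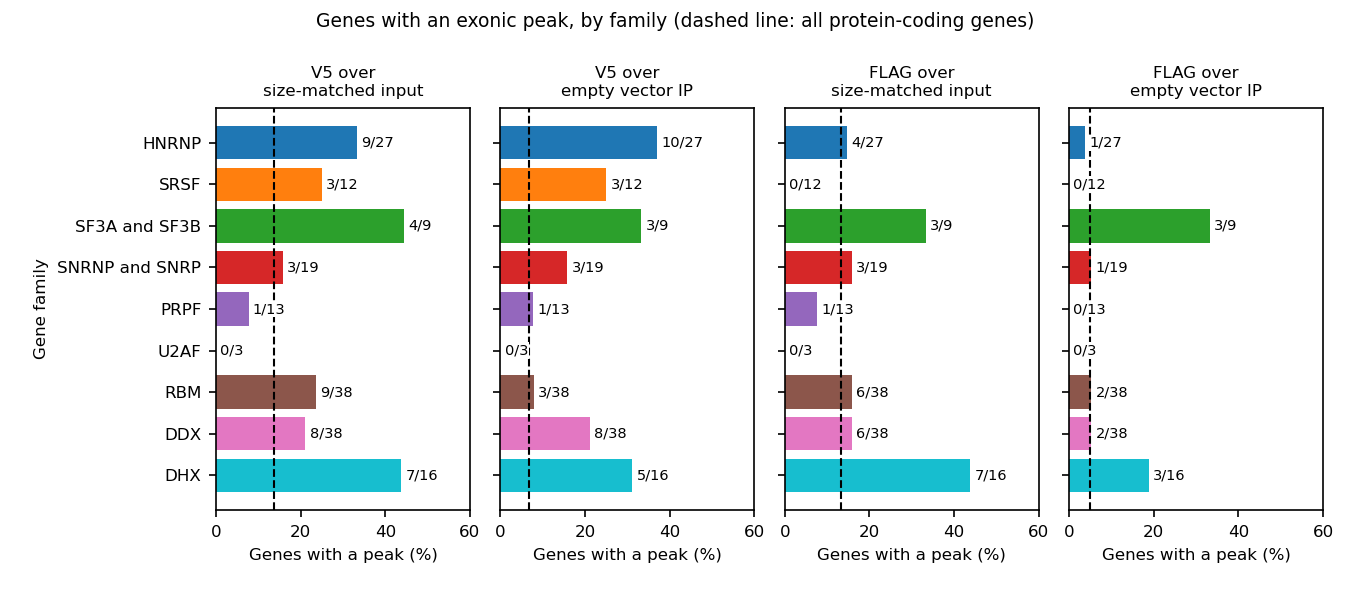
Percentage of the genes of each family with an exonic peak in each list (bars; numbers give genes with a peak over genes of the family), with the percentage over all protein-coding genes as a dashed line. HNRNP reached 33.3% over V5 input and 14.8% over FLAG input, while DHX stood at 43.8% in both.

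The HNRNP mRNAs encode abundant proteins that package nuclear RNA. They had peaks on 9 genes over V5 input and on 10 over the V5 empty vector IP, but on 4 over FLAG input and on 1 over the FLAG empty vector IP. HNRNPA1, a repressor of many exons, was the HNRNP gene with a peak in all 4 lists. Its highest enrichments were 4.54 over V5 input, 3.80 over the V5 empty vector IP, 3.69 over FLAG input and 4.02 over the FLAG empty vector IP. All 15 of its peaks lay within the CDS, in the last 39 nt of exon 5 (chr12:54282448-54282486) and the first 47 nt of exon 6 (chr12:54282573-54282619). GENCODE holds 74 pseudogenes whose symbols begin with that of HNRNPA1, and how reads with several matches were placed cannot be seen in the lists.

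HNRNPK, a KH-domain protein that binds C-rich RNA, had 5 peaks, all in the 5′ UTR on both sides of its first intron. Their enrichments were 3.75 and 3.76 over V5 input, 3.96 and 3.53 over FLAG input and 3.07 over the V5 empty vector IP. Its exon 2 peak over FLAG input had the highest −log10 p that the lists give, 400. HNRNPAB had 5 peaks at the very start of exon 1, with maxima of 4.46 over V5 input, 4.60 over the V5 empty vector IP and 3.41 over FLAG input. HNRNPM, a splicing regulator, carried 6 peaks in CDS exon 14, and it was higher over FLAG input (4.19) than over V5 input (3.42). HNRNPA2B1, HNRNPC, HNRNPF and HNRNPA0 had peaks with V5 but not with FLAG, with maxima between 3.13 and 3.59. The peak on HNRNPA3 over the V5 empty vector IP also overlapped the microRNA gene MIR4444-1.

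SRSF proteins recognize exonic enhancers through RNA recognition motifs and carry a domain rich in arginine and serine. Each of the 6 SRSF genes had a single peak in a single V5 list, and none had a peak with FLAG. SRSF6 (3.33, 5′ UTR), SRSF7 (3.29, 5′ UTR) and SRSF9 (3.21, 3′ UTR) were listed over V5 input. SRSF3 (3.39, CDS), SRSF10 (3.06, 5′ UTR) and SRSF2 (3.02, CDS) were listed over the V5 empty vector IP. All 6 values thus lay near the lowest enrichment that the lists hold.

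Among the subunits of the U2 snRNP, SF3B3, SF3A1, SF3B2 and SF3B5 had peaks. SF3B3, a scaffold subunit of the SF3b complex, had 40 of the 276 peaks (14.5%), the most of any of these genes, and it had peaks in the 5′ UTR, the CDS and the 3′ UTR. Its highest enrichments were 4.32 over V5 input, 4.43 over the V5 empty vector IP, 5.48 over FLAG input and 4.17 over the FLAG empty vector IP. The value of 5.48 belonged to a peak of 6 nt at the first bases of exon 24 (chr16:70570006-70570011). The next peak over FLAG input, 90 nt long in the same exon, had 4.33. Exons 16, 17 and 24 each held a continuous stretch with 6 or 7 peaks, and those in exons 17 and 24 had peaks from all 4 lists.

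SF3A1, a subunit of the SF3a complex, had 17 peaks, of which 14 lay in its 3′ UTR. Its highest enrichments were 3.84 over V5 input, 4.70 over the V5 empty vector IP, 4.47 over FLAG input and 5.06 over the FLAG empty vector IP. A continuous stretch of 199 nt in exon 16 (chr22:30333830-30334028) held 10 of the peaks from all 4 lists. The highest value in this stretch was larger over the empty vector IP than over the input for both tags, 4.70 against 3.71 with V5 and 5.06 against 4.47 with FLAG. The small SF3b subunit SF3B5 had 3 peaks in its 3′ UTR (3.94 over V5 input, 3.84 over FLAG input, 3.05 over the FLAG empty vector IP). SF3B2 had 3 peaks with V5 in exons 1 and 2, between 3.01 and 3.38.

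SNRPD1, an Sm protein of the ring around spliceosomal snRNAs, had the highest enrichment of any of the 276 peaks. Its 5 peaks all lay around the start of exon 1, in the 5′ UTR. The peak of 36 nt at chr18:21612298-21612333 had 6.80 over V5 input and 4.83 over the V5 empty vector IP. The peak that followed it directly had 4.76 and 4.45. Over FLAG input a peak of 133 nt across the same bases had 4.61, and over the FLAG empty vector IP SNRPD1 was not listed. The V5 maximum over input exceeded the FLAG maximum by 2.19 on the log2 scale, the widest gap among the 27 genes with a peak over both inputs.

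SNRPA, an RNA-binding protein of the U1 snRNP, had 10 peaks on the last 104 nt of exon 3 and the first 15 nt of exon 4, all in the CDS, with maxima of 3.51 over V5 input, 3.93 over the V5 empty vector IP and 3.50 over FLAG input. SNRNP200, the helicase that unwinds the U4/U6 duplex, had 17 peaks. Its highest enrichments were 4.13 over V5 input, 4.11 over the V5 empty vector IP, 3.82 over FLAG input and 3.37 over the FLAG empty vector IP. The first 2 of these came from the 27-nt peak in the 5′ UTR whose sequence is printed above, and that peak was listed with V5 but not with FLAG. A stretch of 114 nt at the end of exon 17 (chr2:96291751-96291864) held 7 peaks from all 4 lists.

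PRPF8, the central protein of the U5 snRNP, was the PRPF gene with peaks. Its 11 peaks lay on either side of 2 introns, between exons 1 and 2 and between exons 15 and 16. Its maxima were 3.83 over V5 input, 3.82 over the V5 empty vector IP and 3.76 over FLAG input, and it was not listed over the FLAG empty vector IP. For 5 pairs of PRPF8 peaks across an intron, the upstream and the downstream peak had the same enrichment and the same −log10 p. On all the splicing factor and helicase mRNAs, 23 pairs of peaks in the same list ended at both sides of the same intron, on 8 genes, and the other 18 pairs had unequal values. Among all exonic peaks 22 of 1075 such pairs had equal values. Peaks in such pairs made up 13.9% of the peaks on these mRNAs over V5 input, 17.7% over the V5 empty vector IP, 20.5% over FLAG input and 8% over the FLAG empty vector IP, against 11.1%, 12.6%, 12.8% and 12.5% of all exonic peaks.

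**Figure D3:**
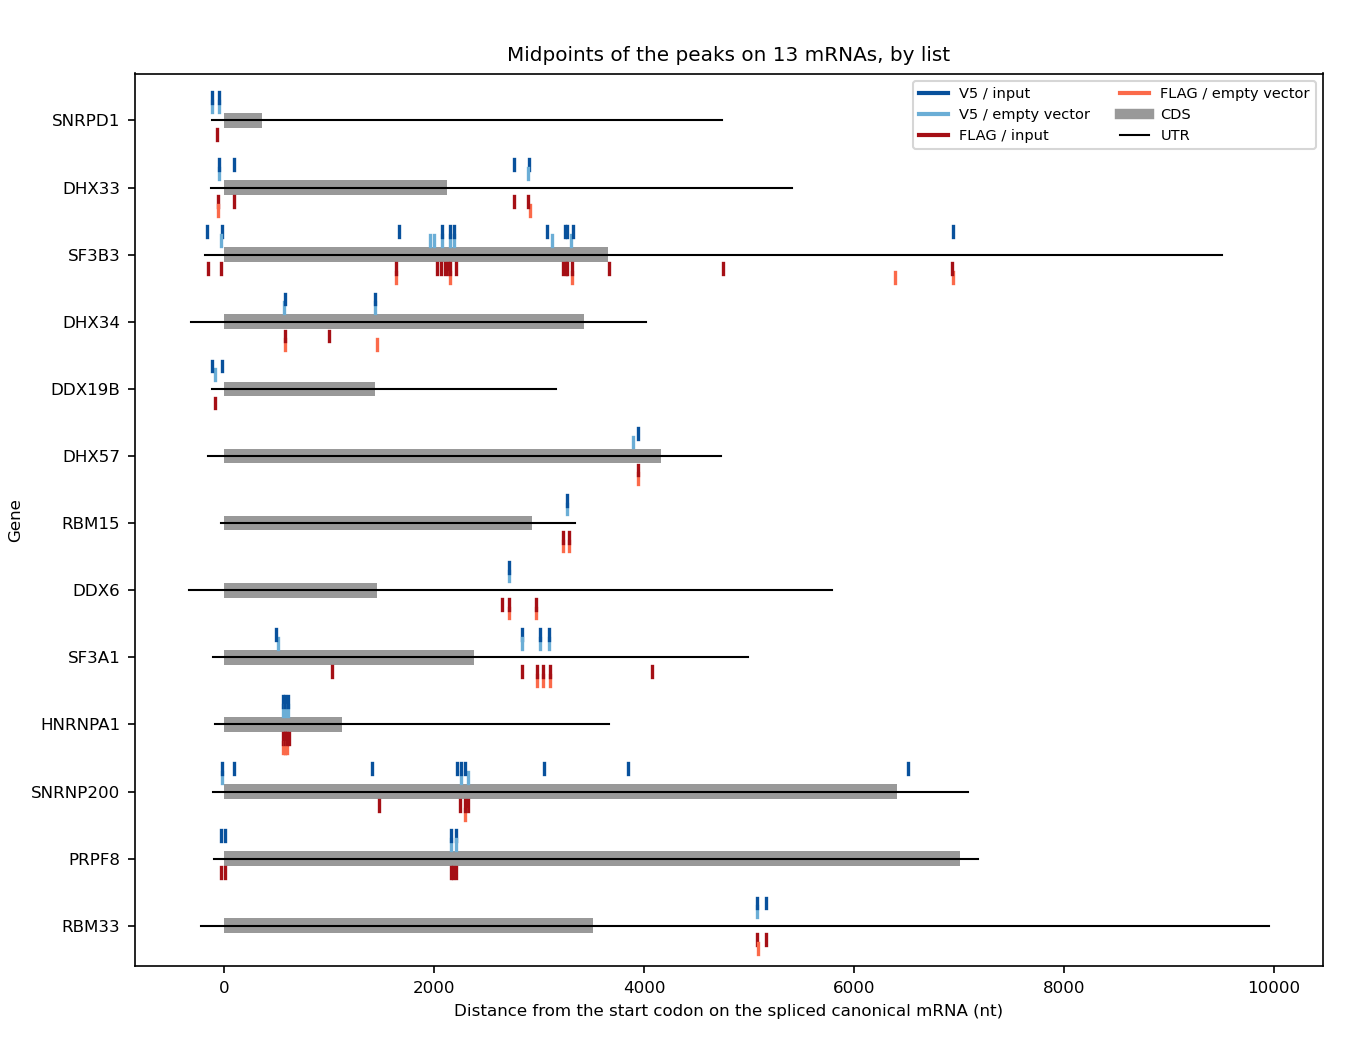
Midpoints of the peaks (ticks, coloured by list; V5 above and FLAG below each line) on the spliced canonical mRNAs of 13 genes, in nt from the start codon, with the CDS as a grey bar and the UTRs as a line. Peaks of SNRPD1 and DDX19B sit in the 5′ UTR, those of HNRNPA1 in a narrow part of the CDS, and those of RBM15, RBM33 and DDX6 in the 3′ UTR.

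RBM genes are named for an RNA-binding motif and have varied roles. RBM15 and RBM15B recruit the m6A methyltransferase to RNA. RBM15 had maxima of 4.75 over V5 input, 3.37 over the V5 empty vector IP, 4.34 over FLAG input and 4.25 over the FLAG empty vector IP. All 6 of its peaks formed a stretch of 122 nt in the 3′ UTR (chr1:110346523-110346644). RBM15B had 14 peaks, of which 12 lay in the CDS, and its maxima were 4.39 over V5 input, 4.12 over the V5 empty vector IP and 3.92 over FLAG input. RBM33 had 6 peaks, all in a stretch of 175 nt in the 3′ UTR (chr7:155776552-155776726), with maxima of 4.14, 3.68, 3.28 and 3.70 in the order V5 over input, V5 over empty vector, FLAG over input and FLAG over empty vector. RBM38, which stabilizes or destabilizes target mRNAs, had 7 peaks over the inputs (maxima of 4.02 with V5 and 3.94 with FLAG) and none over the empty vector IPs. RBM12 had a single CDS peak of 4.43 over V5 input.

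DDX6 represses translation and promotes decay of mRNAs in P-bodies, and it was the DDX gene with an interval shared by all 4 lists. All 7 of its peaks lay in its 3′ UTR, with maxima of 4.05 over V5 input, 3.37 over the V5 empty vector IP, 4.31 over FLAG input and 3.65 over the FLAG empty vector IP. DDX19B works at the nuclear pore in mRNA export. Its 4 peaks lay at the start of exon 1 in the 5′ UTR, with maxima of 5.13 over V5 input, 4.22 over the V5 empty vector IP and 4.19 over FLAG input. They also lay on exons of an unnamed gene that shares those exons (ENSG00000260537), so the transcript of origin cannot be told apart. DDX17 had 8 peaks on exon 1, from the 5′ UTR into the CDS, all with V5. DDX3X, which aids translation of structured 5′ UTRs, had 5 peaks in CDS exon 16 (maxima of 3.77 over V5 input, 3.57 over the V5 empty vector IP and 3.12 over FLAG input). Of the DDX peaks 8 of 25 with V5 and 1 of 15 with FLAG lay in 5′ UTRs. The 8 came from DDX17, DDX19B and DDX5, and the same DDX17 intervals were counted in both V5 lists. Of all exonic peaks, 9.25% over V5 input and 9.32% over the V5 empty vector IP lay there. With FLAG these shares were 7.94% and 3.58%.

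Of the 16 DHX genes 7 had a peak over V5 input and 7 over FLAG input. DHX33 had 12 peaks and a maximum of 5.29 over V5 input, 3.86 over the V5 empty vector IP, 4.93 over FLAG input and 3.91 over the FLAG empty vector IP. Its peaks formed 2 stretches, both with all 4 lists: 297 nt across the start codon in exon 1 (chr17:5468690-5468986) and 289 nt in the 3′ UTR (chr17:5443317-5443605). DHX34, a factor of nonsense-mediated decay, had maxima of 4.40, 3.92, 5.10 and 4.25 in the same order of lists, in CDS exons 2 and 6. DHX57 had maxima of 5.17, 3.39, 4.07 and 3.78, all in CDS exon 23. DHX37, a helicase of ribosome assembly, had its highest value over FLAG input (4.87 against 3.66 with V5), in the 3′ UTR. DHX38 and DHX8 act in the second step of splicing and in mRNA release. DHX38 had 3 peaks in its 3′ UTR, with maxima of 3.74 over V5 input and 4.24 over FLAG input. DHX8 had 2 peaks over FLAG input (3.46 and 4.56), both on an exon that is not part of the canonical transcript.

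The peaks on these mRNAs fell in the 5′ UTR more often and in the 3′ UTR less often than exonic peaks at large in the V5 lists. Over V5 input 20.8% of the 101 peaks lay in the 5′ UTR (95% Wilson interval 14 to 29.7%), against 9.25% of all exonic peaks (8.57 to 9.98%). Over the V5 empty vector IP 25.8% of the 62 peaks did (16.6 to 37.9%), against 9.32% (8.32 to 10.4%). The 3′ UTR held 22.8% (15.7 to 31.9%) against 38% (36.8 to 39.1%) over V5 input, and 12.9% (6.69 to 23.4%) against 27.8% (26.2 to 29.4%) over the V5 empty vector IP. None of these intervals overlapped, but peaks that lie next to each other on an mRNA are not separate samples, and the intervals cover counting error only.

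Counted by gene, 14 of the 44 genes over V5 input had a 5′ UTR peak (31.8%), against 18.3% of all genes with an exonic peak, and over the V5 empty vector IP 12 of 36 did (33.3% against 16.6%). The 5′ UTRs made up 3.35% of the mRNA length of the 44 genes and carried 3.20 peaks per kb, against 1.23 per kb for all genes with a peak. Without SF3B3, the gene with the most peaks, the 5′ UTR shares were 21.1% over V5 input and 27.8% over the V5 empty vector IP.

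With FLAG the intervals overlapped for the 5′ UTR. Over FLAG input 11.4% of the peaks lay there (6.29 to 19.7%), against 7.94% of all exonic peaks (7.3 to 8.63%). Over the FLAG empty vector IP 4% did (0.71 to 19.5%), against 3.58% (2.84 to 4.51%). Counted by gene, 8 of the 30 genes over FLAG input had a 5′ UTR peak (26.7%), against 16% of all genes with an exonic peak. Over the FLAG empty vector IP 1 of 12 genes did (8.33% against 5.66%). The 5′ UTRs of the 30 genes over FLAG input carried 2.42 peaks per kb, against 0.999 per kb for all genes with a peak. In the 3′ UTR the FLAG input share of 27.3% (19.1 to 37.4%) lay below the 40.1% of all exonic peaks (38.9 to 41.3%), and over the FLAG empty vector IP the shares were 48% and 46.9%. The CDS held 56.4%, 61.3%, 59.1% and 48% of the peaks in the order of the lists above, against 51.9%, 62.3%, 51.1% and 48.5% of all exonic peaks.

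**Figure D4:**
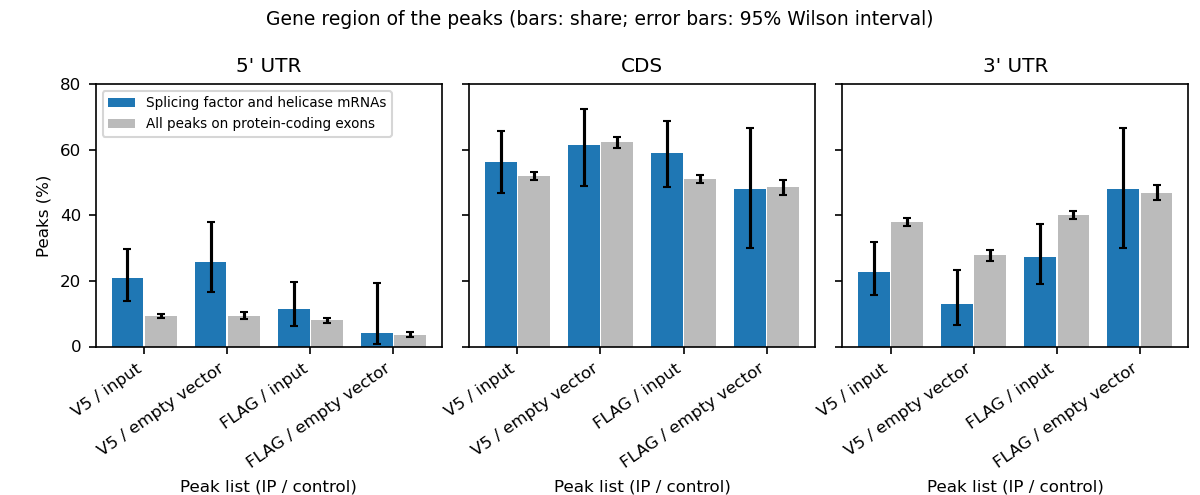
Percentage of peaks in the 5′ UTR, CDS and 3′ UTR in each list, for the 175 genes (blue) and for all peaks on exons of protein-coding genes (grey), with 95% Wilson intervals. The blue 5′ UTR bars of the V5 lists, at 20.8% and 25.8%, stand above the grey ones at 9.25% and 9.32%.

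The families did not share a single pattern of regions. The counts below sum the 4 lists, so a site listed more than once is counted each time. Of the 17693 exonic peaks, 1446 lay in the 5′ UTR, 9374 in the CDS and 6720 in the 3′ UTR. Among the 45 HNRNP peaks the counts were 15, 28 and 2. Of the 40 RBM peaks 3 were in the 5′ UTR, 17 in the CDS and 20 in the 3′ UTR. The 63 SF3A and SF3B peaks divided into 5, 35 and 23, the 32 SNRNP and SNRP peaks into 7, 24 and 1, and the 11 PRPF8 peaks into 2, 9 and 0. The DDX family had 9, 23 and 8, and the DHX family 4, 21 and 12 besides the 2 on the other exon of DHX8. Several of these counts rest on few genes. SF3B3 and SF3A1 held 57 of the 63 SF3 peaks, and HNRNPA1 held 15 of the 28 HNRNP peaks in the CDS. The 32 SNRNP and SNRP peaks lay on SNRNP200, SNRPA and SNRPD1, with 17, 10 and 5.

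Peaks in the 5′ UTR were found on 17 genes with V5 and on 8 with FLAG, and the 8 were all among the 17, that is 47.1% of the V5 genes and 100% of the FLAG genes. Over all genes with a 5′ UTR peak these shares were 51.2% and 64.2%. DDX19B, DHX33, HNRNPAB, HNRNPK, PRPF8, RBM15B, SF3B3 and SNRPD1 had them with both tags. The 5′ UTR peaks lay close to the annotated start of transcription. Positions of their 5′ ends were counted from it, with upstream positions negative. The median was 16 nt over V5 input, against 27 nt for all 5′ UTR peaks. A position of at most 25 nt, any upstream position included, was found for 61.9% (40.9 to 79.2%), against 48.9% (44.9 to 52.9%). The most upstream position of all 5′ UTR peaks over V5 input was -133 nt. Over FLAG input the median was 8.5 nt against 30 nt, with 70% at 25 nt or less (39.7 to 89.2%) against 46.2% (41.9 to 50.6%). The Wilson intervals of these shares overlapped in both lists. These distances are limited by the length of each 5′ UTR, which was not allowed for. Some peaks of SNRPD1 and DDX19B began up to 23 nt upstream of the annotated start. Some peaks of SRSF10, DHX33, HNRNPA2B1, HNRNPAB and SRSF7 also began upstream of it, by fewer nt.

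Gene lists of both tags overlapped unevenly. Over the inputs 27 genes had a peak with V5 and with FLAG, which was 61.4% of the 44 V5 genes and 90% of the 30 FLAG genes, whereas over all protein-coding genes the shared part was 68.3% of the V5 genes and 70.4% of the FLAG genes. The 17 genes with V5 alone had low maxima, with a median of 3.29 and a range from 3.01 to 4.84, and DDX17 and RBM12 exceeded 4. The 27 shared genes had a median maximum of 4.02 with V5. DHX8 (4.56), RBM18 (3.99) and DDX23 (3.33), the last a helicase of the U5 snRNP, had a peak with FLAG alone. Over the empty vector IPs 10 genes were shared, 27.8% of the 36 V5 genes and 83.3% of the 12 FLAG genes, against 42.4% and 57.9% over all protein-coding genes.

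Counted by peak, the overlap over the inputs was larger than among all exonic peaks for both tags. Of the V5 peaks over input 64.4% overlapped a FLAG peak over input (54.6 to 73%), and of the FLAG peaks 79.5% overlapped a V5 peak (70 to 86.7%). Among all exonic peaks these shares were 53.6% and 55.4%. Over the empty vector IPs 25.8% of the V5 peaks (16.6 to 37.9%) and 76% of the FLAG peaks (56.6 to 88.5%) overlapped a peak of the other tag, against 30.8% and 51% among all exonic peaks.

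Across the 27 shared genes, the highest V5 and FLAG enrichments over input had a Pearson r of 0.379 and a Spearman rho of 0.367, given as a description because genes share libraries and differ in length and depth. FLAG was higher than V5 for 8 of the 27 genes (29.6%), against 47.5% of 1857 protein-coding genes. The FLAG maximum minus the V5 maximum had a median of -0.17 and an SD of 0.75 over genes. SNRPD1, DHX57 and HNRNPAB were farthest toward V5, by 2.19, 1.10 and 1.05, while DHX37 and SF3B3 were farthest toward FLAG, with V5 minus FLAG values of -1.21 and -1.16.

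**Figure D5:**
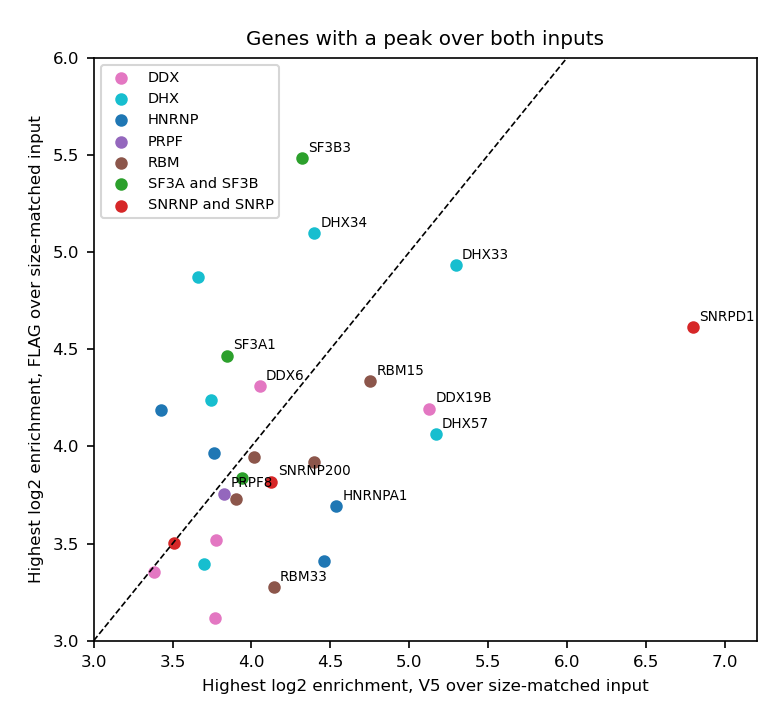
Highest enrichment over size-matched input with V5 (x axis) and FLAG (y axis), both log2, for the 27 genes with a peak in both lists, coloured by family; the dashed line marks equal values. SNRPD1 lies far to the right at 6.80 and 4.61, and 8 genes lie above the line.

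When the 4 lists were intersected (at least 50% of the first interval on the same strand), 15 intervals on 10 of these genes remained, which is 5.71% of the 175 genes, against 2.07% of all protein-coding genes. The 10 genes were DHX33, DHX34, DHX57, SF3A1, SF3B3, SNRNP200, HNRNPA1, RBM15, RBM33 and DDX6. HNRNPA1 held 3 intervals, and DHX33, SF3A1 and SF3B3 held 2 each. Of the 15 intervals 1 was in a 5′ UTR (DHX33), 8 were in the CDS and 6 were in a 3′ UTR.

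The intervals ranged from 6 nt in HNRNPA1 to 167 nt in the 3′ UTR of DHX33. In none of them did the enrichment reach 4 in all 4 lists. The 5′ UTR interval of DHX33 (chr17:5468854-5468979) came close, with 4.63 over V5 input, 3.86 over the V5 empty vector IP, 4.93 over FLAG input and 3.91 over the FLAG empty vector IP. The CDS interval of DHX34 (chr19:47353533-47353687) had 4.40, 3.21, 5.10 and 4.25 in that order. SNRPD1 and DDX19B, despite their high values over input, were not among the 10 because neither was listed over the FLAG empty vector IP.

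The GU-loop and stem model was called somewhat more often in these peaks than in all exonic peaks, and the Wilson intervals overlapped in every list. Over V5 input 47.5% of the peaks held a call (38.1 to 57.2%), against 41.7% (40.5 to 42.9%). Over the V5 empty vector IP the shares were 53.2% (41 to 65.1%) and 39.6% (37.9 to 41.4%). Over FLAG input they were 43.2% (33.3 to 53.6%) and 39.7% (38.5 to 40.9%), and over the FLAG empty vector IP 44% (26.7 to 62.9%) and 40% (37.8 to 42.2%). GC content was close to that of all exonic peaks, at 61.1% against 61.2% over V5 input and 60.1% against 59.5% over FLAG input.

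By family, 66.7% of the 39 DHX peaks and 65% of the 40 RBM peaks held a call, against 42.9% of the 63 SF3A and SF3B peaks, 42.2% of the 45 HNRNP peaks, 40.6% of the 32 SNRNP and SNRP peaks and 27.5% of the 40 DDX peaks. Of the 6 SRSF peaks 66.7% did and of the 11 PRPF8 peaks 36.4%. DHX and RBM also had the longest peaks, with medians of 132 and 86.5 nt. The others ranged from 36.5 nt for SNRNP and SNRP to 65.5 nt for SRSF, and DDX peaks, with the lowest share, had a median of 61 nt. All 12 DHX33 peaks held a call, out of 26 DHX peaks with a call. Of the 14 RBM15B peaks 10 held a call, out of 26 RBM peaks with a call. None of the 7 DDX6 peaks held a call. Of the 15 intervals shared by all lists 7 held a call (46.7%), on 6 of the 10 genes. Over all such intervals, which were not limited to protein-coding exons, 274 of 749 did (36.6%). A stretch of each of the 7 intervals is printed first above.

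Other genes of splicing and RNA remodelling, with symbols outside the chosen families, were examined as a list of 98. A peak was found on 22 of them over V5 input (22.4%), on 17 over the V5 empty vector IP (17.3%), on 19 over FLAG input (19.4%) and on 8 over the FLAG empty vector IP (8.16%), against 13.6%, 6.78%, 13.2% and 4.96% of all protein-coding genes. LSM4, PTBP3 and UPF1 had an interval shared by all 4 lists, which 2.07% of all protein-coding genes had. UPF1, the central helicase of nonsense-mediated decay, had maxima of 3.73, 3.55, 4.85 and 3.52 in that order of lists. EFTUD2, a U5 snRNP GTPase that contacts PRPF8, had 3.64, 3.72 and 3.56 and, like PRPF8, was not listed over the FLAG empty vector IP. TRA2B, a splicing activator related to the SRSF proteins, was listed in all 4 without a shared interval, with 4.53, 3.25, 4.33 and 4.94.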

How the data were processed

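eCLIP libraries of V5- and 3xFLAG-tagged dSpCas9, size-matched inputs and empty vector IPs (2 replicates each, grouped by their labels) were represented by 4 peak lists. According to the study's methods, the authors aligned reads to hg38, called peaks with an eCLIP pipeline, and combined the replicates into a list by their Irreproducible Discovery Rate. The submitters' processing notes name STAR 2.4.0i, cutadapt 1.14, UMI-tools 1.0.0, SAMtools 1.6 and GRCh38. The deposited lists hold, for each peak, a log2 ratio of IP over control reads (geometric mean of both replicates), which was used as deposited. The authors also deposited a −log10 p for each peak, and values above 400 are given as 400. How counts were scaled for library size is not given in the sources used here. A peak near the deposited thresholds can be missing from a list after a small change of value.

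Genes, exons and regions came from GENCODE version 44 (Ensembl 110). A peak was assigned the region of the Ensembl canonical transcript that held most of its bases. Positions are 1-based on hg38. The 4 lists were intersected V5 first, FLAG first, then V5 against FLAG (at least 50% of the first interval, same strand). RNAplfold of ViennaRNA 2.7.2 was run through its Python interface on each peak with 50 nt of hg38 on either side (window and span of 70 nt). A call needed a U paired below 0.7 and 5 following bases each paired above 0.5, all inside the peak. Wilson intervals are at the 95% level. Python 3.11.15, numpy 2.4.6, scipy 1.17.1 and matplotlib 3.10.9 were used, and the steps were tested on simulated data.

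The genes, the list of 98 other genes and the comparisons were chosen with earlier results of these data known. Genes named by rule were those with an interval in all 4 lists, the highest mean of both input maxima in each family, and the 3 with most peaks. Other genes were named after their values were seen. Set tests, comparisons between replicates and levels of RNA were not part of the work.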

Additional observations from a re-analysis of the deposited data

How the results depend on the processing

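Of 124 alternative values for 36 results, 97 stayed close to the value reported (for shares, inside its Wilson interval), and 27 moved further. For counts the limit was wide: 22 shared intervals with 1 nt of overlap, against 15, still counted as close. Most of those 27 came from requiring an enrichment of at least 4. This left 20, 11, 22 and 7 peaks on 16, 8, 13 and 5 genes in the order V5 over input, V5 over empty vector, FLAG over input and FLAG over empty vector, and 0 intervals on 0 genes shared by all 4 lists. The 5′ UTR shares were then 30% over V5 input, 45.5% over the V5 empty vector IP and 0% over the FLAG empty vector IP, the CDS shares 45%, 45.5%, 31.8% and 28.6%, and the 3′ UTR shares 45.5% and 71.4% in both FLAG lists. A −log10 p of at least 5 left 37 peaks on 22 genes over the V5 empty vector IP. Taking the highest peak of each gene raised the median enrichment to 3.77 over V5 input and 3.95 over FLAG input. With a U paired below 0.5 and stem bases above 0.7, the share of peaks with a GU-loop and stem call was 12.9% over V5 input, 16.1% over the V5 empty vector IP and 12.5% over FLAG input, and with touching peaks merged it was 56.7% over FLAG input. The lower counts follow from the stricter thresholds, and the cause of the other changes was not tested. Exon overlap, transcripts, order of the lists and overlap in the intersection changed no result that far. The 50% overlap between peaks of both tags and the 50 nt distance from the start of transcription were added after seeing the data.

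No paired analysis was possible because the lists hold a single value per peak over both replicates, and for the same reason leaving out a replicate gave no value. Depth is unknown, so the absence of a gene from a list does not show that it was not bound.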
